A study of Saccharomyces cerevisiae with 232 samples.

Results

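The budding yeast strains pus2D, pus5D and pus9D each lacked 1 pseudouridine synthase that acts on mitochondrial RNA. Here their 9 libraries and the 8 wild-type libraries of the same set are described, chosen by strain name from the labels: 17 of the 232 samples of the series. All strains were of the BY4741 background, a haploid laboratory strain of mating type a. The strain pus2D carried pus2D::kanMX, pus5D carried pus5D::kanMX and pus9D carried pus9D::kanMX, where kanMX is a drug resistance cassette, and the wild type carried none of these. Every culture grew in the rich medium YPD at 30 °C, and cycloheximide, which arrests elongating ribosomes, was given at 100 µg/mL for 30 s before footprinting. Ribosome-protected footprints, the pieces of mRNA covered by 80S ribosomes, came from 2 libraries of each strain and from wild-type libraries 7 to 10. RNA came from 1 library of each strain and from wild-type libraries 5 to 8. The strains pus3D (pus3D::kanMX) and pus4D (pus4D::kanMX) of the same set, with 2 footprint libraries and 1 RNA library each, serve for comparison at the end. The labels do not state separate cultures or clones, so p-values measure only the spread between these samples.

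A pseudouridine synthase turns a uridine of an RNA chain into pseudouridine, an isomer joined to its sugar through carbon. Pus2 modifies mitochondrial tRNA at positions 27 and 28 of the anticodon stem, Pus9 modifies mitochondrial tRNA at position 32 of the anticodon loop, and Pus5 modifies the large mitochondrial ribosomal RNA. The cytosolic counterparts are other enzymes: Pus1 acts on the anticodon stem and Pus8 on position 32 of cytosolic tRNA. Mitochondrial ribosomes translate 8 messages of the mitochondrial genome, most of them for subunits of the respiratory chain and ATP synthase. All other proteins, including those of the mitochondrion itself, are made by the cytosolic ribosomes whose footprints were sequenced.

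The anticodon arms of mitochondrial tRNAs show where Pus2 and Pus9 act. They are read here from the reference genome (R64, the build called sacCer3), from position 27 to position 43 of the tRNA as DNA letters on the coding strand, which is the plus strand for each. Capitals mark a T, a uridine in the RNA, at position 27, 28 or 32; whether each is modified was not measured here.
tC(GCA)Q, mitochondrial genome 64441 to 64457: TTagaTtgcaaatctac
tT(UGU)Q1, mitochondrial genome 63888 to 63904: TTcgtTttgtaatcgaa
tV(UAC)Q, mitochondrial genome 78559 to 78575: TTcgtTttacacacgaa
tY(GUA)Q, mitochondrial genome 70853 to 70869: TTgagctgtaaactcaa
tD(GUC)Q, mitochondrial genome 68347 to 68363: ccattTtgtcataatgg
tQ(UUG)Q, mitochondrial genome 66236 to 66252: ccaaaatttgagtttgg
The first 3 have a uridine at all 3 positions, tY(GUA)Q has them only in the stem, tD(GUC)Q has it only in the loop and tQ(UUG)Q has none. Of 24 annotated mitochondrial tRNAs, 22 gave an arm with at least 4 of 5 stem pairs and a T just before the anticodon. Among these 22, a T stood at position 27 or 28 in 18, at position 32 in 11, at both places in 10 and at neither in 3.

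The 10 footprint libraries held 1.84 to 3.70 M reads (median 2.64 M) and the 7 RNA libraries 9.27 to 11.5 M (median 10.3 M). Values are RPKM, reads per kilobase of coding sequence and M mapped reads, and differences are log2 of RPKM plus 1, strain minus wild type, which understates the change of low genes. Pairs of wild-type libraries correlated across genes with r of 0.991 to 0.995 for footprints, and libraries 1 and 2 of a strain with 0.991 to 0.993; genes are not independent replicates. The mating type genes matched BY4741 in every library: STE2, the receptor for alpha factor, had 198 to 249 RPKM of footprints in the 6 strain libraries and 198 to 229 RPKM in wild type. Of the 4 marker genes mutated in this background, LEU2, MET17 and URA3 had 0 footprints in all 10 libraries. HIS3, whose BY4741 allele is a partial deletion that leaves much of the gene in place, had 80.8 to 120 RPKM of footprints in the 6 strain libraries and 102 to 129 RPKM in wild type.

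Each strain lacked the transcript its name states. PUS2 (YGL063W, chromosome VII, 383654 to 384766, plus strand) had 0 RPKM in both footprint libraries of pus2D, against 3.97, 2.91, 4.0 and 1.82 RPKM in wild type. Its RNA was 0 RPKM in pus2D, against 10.2, 11.1, 10.3 and 10.9 RPKM in wild type, at least 40.1-fold lower when pus2D is set at 3 reads, the limit that a count of 0 allows. No pus2D library overlapped the wild-type range. The footprint values of PUS2 rest on only 4 to 16 reads per wild-type library.

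PUS5 (YLR165C, chromosome XII, 494494 to 495258, minus strand) had 0 and 0.508 RPKM of footprints in pus5D, against 2.17, 6.0, 3.39 and 3.98 RPKM in wild type. Its RNA was 0.127 RPKM in pus5D, which is 1 read, against 8.96 to 11.4 RPKM in wild type. The footprints of PUS5 were thin everywhere, with 6 to 17 reads in wild type, and pus9D (1.66 and 1.75 RPKM) and library 2 of pus2D (0.71 RPKM) also lay below wild type, while their PUS5 RNA, 11.7 and 11.1 RPKM, did not. PUS2 and PUS5 stayed under the mean of 10 RPKM that the footprint test required, so their footprints are given as values.

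PUS9 (YDL036C, chromosome IV, 387513 to 388901, minus strand) was the most translated of the 3 synthases. It had 0 and 0.321 RPKM in pus9D, against 17.7, 19.6, 15.2 and 17.5 RPKM in wild type, a log2 difference of -4.0 ± 0.16 (SE; limma, adjusted p = 1.7e-33). Its RNA was 0.078 RPKM in pus9D and 22.1 to 23.8 RPKM in wild type. The other 2 strains had less PUS9 footprint than any wild-type library, 14.3 and 11.3 RPKM in pus2D and 12.7 and 14.3 RPKM in pus5D. These differences, -0.42 ± 0.16 and -0.35 ± 0.16, did not pass the test (limma, adjusted p = 0.66 and 0.90), and the PUS9 RNA was 24.2 RPKM in pus2D and 24.6 RPKM in pus5D, just above wild type.

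**Figure D1:**
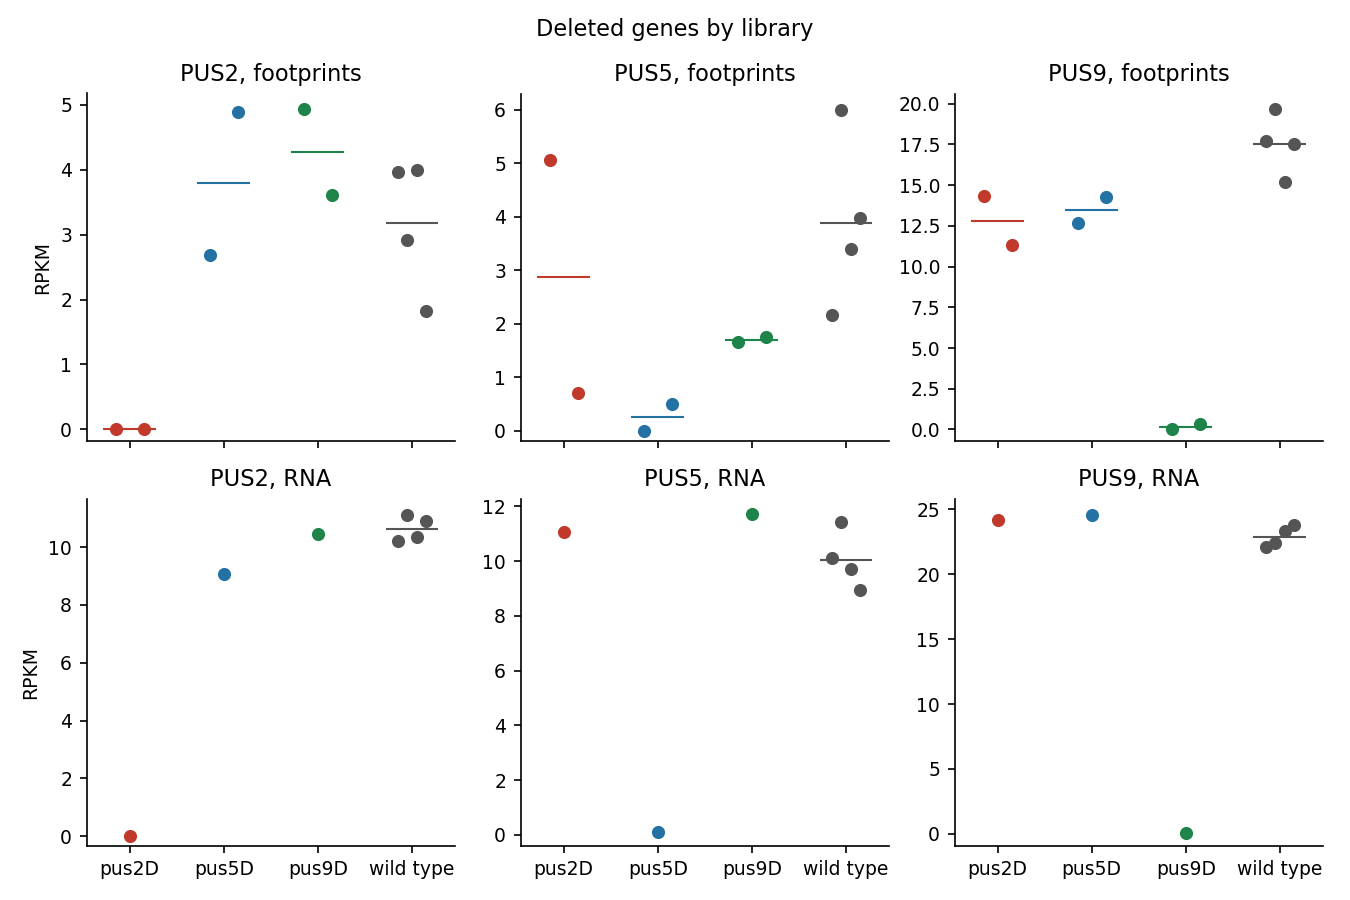
RPKM (y axis) of PUS2, PUS5 and PUS9 in footprints (top) and RNA (bottom), by strain (x axis); each point is 1 library and short lines are group means where a group has more than 1 library. The deleted gene is at or near 0 in its own strain in both assays, with 0.508 RPKM of PUS5 footprints in pus5D as the highest value.

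The other pseudouridine synthases did not pass the test in any of the 3 strains. PUS1 had 73.8 and 66.0 RPKM of footprints in pus2D, 69.3 and 82.2 RPKM in pus5D, 76.1 and 77.9 RPKM in pus9D, and 77.8 to 85.2 RPKM in wild type. Its log2 differences were -0.22, -0.11 and -0.080, each ± 0.12 (SE). Of 13 listed synthases and partners of the snoRNA-guided enzyme, 10 were tested in footprints, and PUS9 in pus9D was the 1 call among them. For these 10 the median log2 difference was -0.12 in pus2D, -0.11 in pus5D and -0.081 in pus9D, against 0.023, 0.0028 and 0.0083 over all tested genes. Both strain libraries lay below all wild-type libraries for 3, 2 and 3 of the 10, where 6.19%, 7.47% and 9.11% of all genes did. In pus9D the 3 were GAR1, NHP2 and the deleted PUS9 itself, and the pus9D median includes PUS9 too.

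The gene beside PUS2 was lower in pus2D. PYC1 (YGL062W, chromosome VII, 385196 to 388732, plus strand) encodes pyruvate carboxylase, which makes oxaloacetate from pyruvate, and starts 429 bases after the end of PUS2 on the same strand. Its footprints were 49.1 and 61 RPKM in pus2D, against 96.5, 87.0, 84.7 and 75.9 RPKM in wild type. Its RNA was 58.3 RPKM in pus2D, against 104, 94.1, 91.3 and 84.7 RPKM in wild type. The pus2D values lay below every wild-type value in both assays.

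The PYC1 footprint difference in pus2D was -0.64 ± 0.10 (SE) on the log2 scale, with a 95% interval of -0.84 to -0.43 and limma adjusted p = 0.00012. The RNA difference was -0.67, from 1 library. In pus5D PYC1 had 78.4 and 75.3 RPKM of footprints and 82.0 RPKM of RNA, and in pus9D 82.9 and 77.8 RPKM of footprints and 92.1 RPKM of RNA. The direct difference of pus2D from pus9D was -0.55 ± 0.12 (limma, adjusted p = 0.034), and that from pus5D was -0.48 ± 0.12 (adjusted p = 0.17). The call against wild type was lost when only the 6 libraries compared were fitted (adjusted p = 0.28) and without library 1 of pus2D (log2 difference -0.48, adjusted p = 0.16).

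Of the other genes within 2 places of a deleted gene, 7 were tested in footprints and none passed (percent called over all genes: 0.0234% in pus2D, 0% in pus5D and 0.0701% in pus9D). MRH4, a helicase of mitochondrial ribosome assembly on the other side of PUS2, had 13.8 and 14.5 RPKM of footprints in pus2D and 14.2, 11, 13.8 and 11.4 RPKM in wild type. MAS1, a subunit of the mitochondrial processing protease near PUS5, had 54.7 and 52.0 RPKM in pus5D and 45.7, 49.6, 48.3 and 44.9 RPKM in wild type, a log2 difference of 0.18 ± 0.12. GPR1, a glucose receptor beside PUS9, had 14 and 11.6 RPKM in pus9D and 11.4, 14.8, 12.4 and 13.5 RPKM in wild type. These 3 genes overlapped wild type except MAS1, whose 2 pus5D values lay above all 4 wild-type values. MAS1 also lay above wild type in pus9D (53.4 and 52.3 RPKM), pus3D (56.7 and 57.7 RPKM) and, barely, pus2D (54.3 and 49.6 RPKM). In pus4D it had 61.2 and 45.7 RPKM, the second inside the wild-type range. The higher MAS1 was therefore not particular to pus5D.

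SHH4, a relative of a succinate dehydrogenase subunit, ends 104 bases from the 3′ end of PUS5 and runs toward it. It was too low in footprints to test, with 1.8 and 0 RPKM in pus5D and 0 to 1.1 RPKM in wild type. Its RNA was 9.58 RPKM in pus5D, against 14.9, 17.4, 13.8 and 14.6 RPKM in wild type, a difference of -0.61 from 1 library with no replicate check. The RNA of SHH4 was 18.1 RPKM in pus2D and 14.1 RPKM in pus9D, so the low value was that of pus5D.

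**Figure D2:**
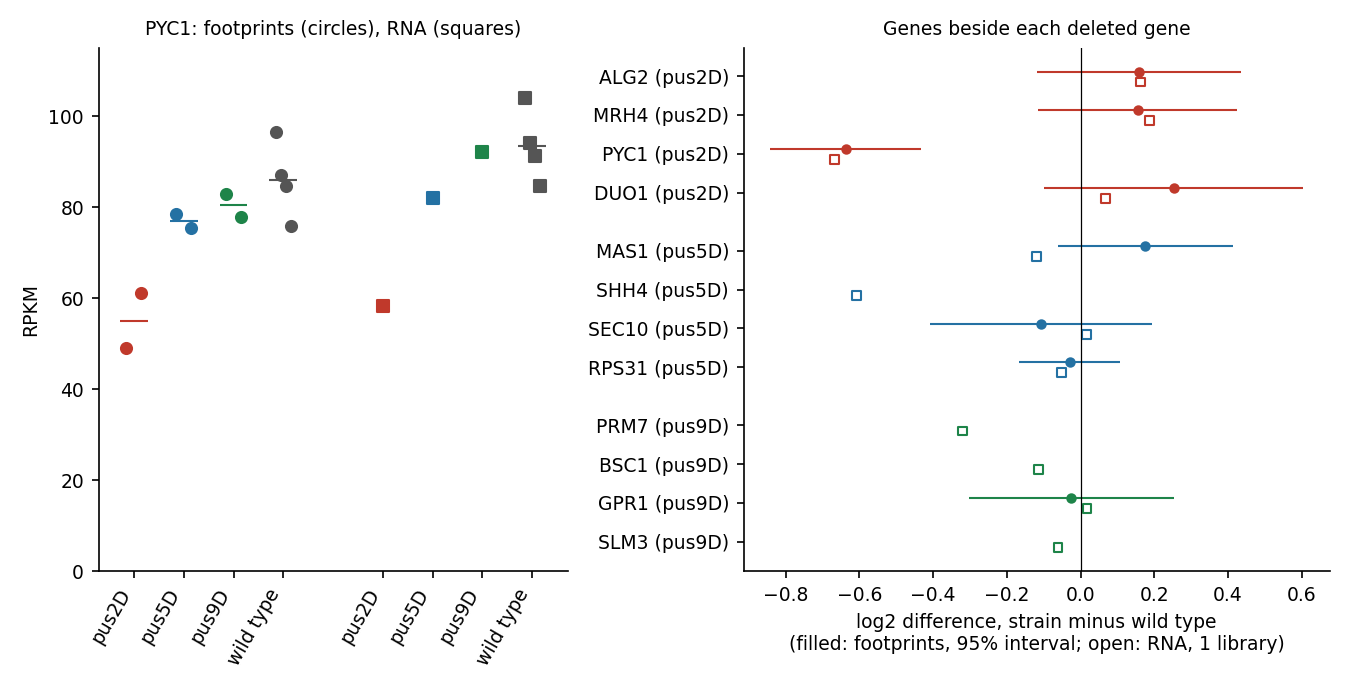
Left, PYC1 in RPKM (y axis) by strain (x axis) for footprints and RNA, 1 point a library. Right, log2 differences (x axis) of the 2 annotated genes on each side of each deleted gene (y axis); filled points are footprints with 95% intervals where tested and open squares are single RNA libraries. PYC1 in pus2D is at -0.64 in footprints and -0.67 in RNA, and SHH4 in pus5D is at -0.61 in RNA.

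Across the genome the 3 strains differed little from their wild type. In pus2D, 1 of 4281 tested genes passed in footprints, PYC1 (0.0234%). In pus5D limma called 0 genes at an adjusted p under 0.05, and 221 had an unadjusted p under 0.05. In pus9D 3 genes passed, all lower: PUS9 itself, SSF1 and PRP43. The 95% interval of the difference lay wholly within 2-fold for 98.5% of genes in pus2D, 98.9% in pus5D and 98.0% in pus9D. The mean of the 3 strains differed from wild type in 1 gene, PUS9 (0.0234%), where pus9D alone had lost the gene. With all 14 wild-type footprint libraries of the series as 1 group, 5 genes were called in pus2D, 134 in pus5D, 73 in pus9D and 910 for the mean, and without library 1 of pus9D 12 genes were called in pus9D.

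SSF1 and PRP43 act in the assembly of ribosomes, SSF1 on the large subunit and PRP43 as a helicase of both ribosome assembly and splicing. SSF1 had 41.2 and 34.0 RPKM of footprints in pus9D, against 46.8, 54.1, 56.0 and 55.9 RPKM in wild type. PRP43 had 109 and 98.6 RPKM in pus9D, against 124, 134, 122 and 124 RPKM in wild type. In both genes the pus9D values lay below all wild-type values, as they did for 9.11% of all genes. PRP43 also lay below wild type in pus2D (120.6 and 107.1 RPKM), pus5D (117.9 and 120.0 RPKM) and pus4D (113.7 and 119.9 RPKM). In pus3D only library 2 lay below wild type for PRP43. The lower PRP43 was therefore not particular to pus9D. For SSF1 none of pus2D, pus5D, pus3D and pus4D had both libraries below wild type.

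The log2 differences were -0.49 ± 0.11 for SSF1 and -0.28 ± 0.06 for PRP43, with limma adjusted p of 0.048 and 0.0498, close to the threshold. Among 14 alternatives SSF1 kept its call in 8 and PRP43 in 6, and both lost it without library 2 of pus9D (adjusted p = 0.83) and when only the 6 libraries compared were fitted (adjusted p = 0.29 and 0.39). Their RNA in pus9D, 58.6 RPKM for SSF1 and 90.2 RPKM for PRP43, compared with 49.9 to 56.5 and 88.2 to 101 RPKM in wild type, so the RNA of SSF1 lay above its wild-type range and that of PRP43 inside it.

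**Figure D3:**
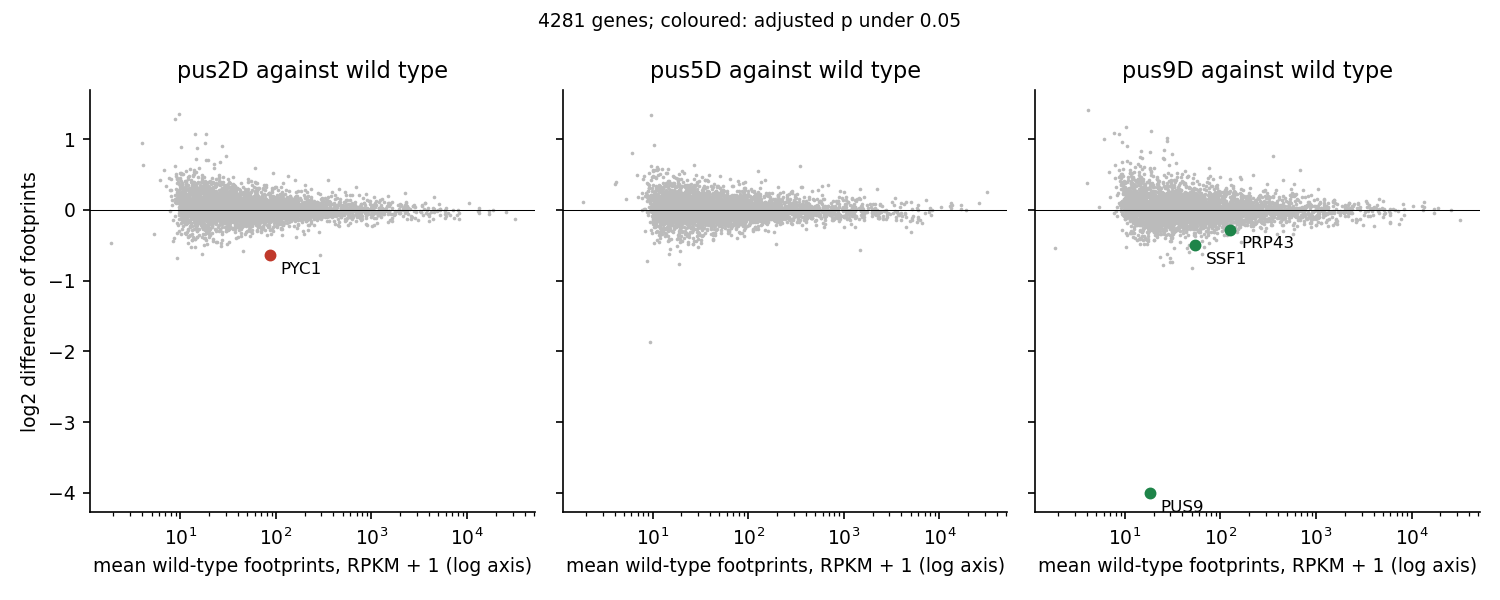
Log2 difference of footprints (y axis) against mean wild-type footprints (x axis, log scale, RPKM plus 1) for 4281 genes in each strain; coloured points have an adjusted p under 0.05. The named points are PYC1 in pus2D and PUS9, SSF1 and PRP43 in pus9D, and pus5D has none.

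The genes next in rank by their moderated t did not pass, and are given as values. In pus2D these were STE11, a kinase of the mating pathway, with 14 and 17.4 RPKM in pus2D against 7.54 to 13 RPKM in wild type, and TFS1, an inhibitor of carboxypeptidase Y, with 26.4 and 30.4 RPKM in pus2D against 9.23 to 16.7 RPKM in wild type. MAE1, the mitochondrial malic enzyme, stood first among the lower ones, with 161 and 151 RPKM in pus2D and 178, 188, 201 and 200 RPKM in wild type. All 3 lay outside the wild-type range, with limma adjusted p of 0.36, 0.64 and 0.36. TFS1 also lay above wild type in pus4D (29.5 and 26.6 RPKM), pus9D (21.7 and 23 RPKM) and pus5D (20.4 and 17.7 RPKM). Both pus3D libraries lay inside the wild-type range for TFS1. The higher TFS1 was therefore not particular to pus2D.

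Also among the first ranks in pus2D was GWT1, an enzyme of lipid anchor synthesis, with 31.3 and 29.8 RPKM in pus2D and 20 to 24 RPKM in wild type. MPP10, a factor of small ribosomal subunit assembly, had 62.6 and 61.2 RPKM in pus2D and 71.5 to 87.4 RPKM in wild type. MAP1, a methionine aminopeptidase, had 376 and 346 RPKM in pus2D and 385 to 438 RPKM in wild type. None of these ranges overlapped, where 9.37% of all genes lay above wild type in pus2D and 6.19% below. These genes too were picked for their difference from the same wild-type libraries. The adjusted p (limma) were 0.60, 0.37 and 0.55. GWT1 also lay above wild type in pus3D (34.3 and 34.7 RPKM). MPP10 also lay below it in pus4D (68.7 and 59.0 RPKM), as did MAP1 in pus3D (316 and 300 RPKM). In pus5D and pus9D none of these genes had both libraries on that side.

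In pus5D the highest ranks held UME6 and MIG1, which repress transcription, and COX7, a subunit of cytochrome c oxidase. COX7 had 171 and 190 RPKM in pus5D, against 165, 122, 134 and 83.6 RPKM in wild type, a log2 difference of 0.55 ± 0.17 (limma, adjusted p = 0.71). The lower ones included TAD3, a subunit of the tRNA adenosine deaminase, with 17 and 14.6 RPKM in pus5D and 19.2 to 25.5 RPKM in wild type, and TRL1, the tRNA ligase, with 12.5 and 15.5 RPKM in pus5D and 17.4 to 22.8 RPKM in wild type. RIM11, a kinase that drives entry into meiosis, had 30.6 and 29.0 RPKM in pus5D and 16.9 to 22.8 RPKM in wild type. The adjusted p of each was 0.71. RIM11 also lay above wild type in pus2D (25.1 and 23.9 RPKM) and pus9D (26.1 and 30 RPKM). The same held for RIM11 in pus3D (28.8 and 30 RPKM) and pus4D (28.5 and 26.9 RPKM). TRL1 also lay below wild type in pus9D (14.4 and 13.8 RPKM) and pus4D (15.5 and 13.6 RPKM). Neither library of pus3D lay below wild type for TRL1, nor did library 1 of pus2D. COX7 lay above wild type in pus3D too (212 and 202 RPKM), though not in pus2D, pus9D or pus4D. UME6 also lay above wild type in pus3D and pus4D, and MIG1 in pus2D and pus4D. The RIM11, TRL1, COX7, UME6 and MIG1 differences were therefore not particular to pus5D.

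In pus9D the first ranks among higher genes held TOM40, the channel of the outer mitochondrial membrane, and SDH8, an assembly factor of succinate dehydrogenase. TOM40 had 342 and 375 RPKM in pus9D, against 283, 296, 308 and 290 RPKM in wild type, a log2 difference of 0.28 ± 0.07 (limma, adjusted p = 0.053). SDH8 had 110 and 119 RPKM in pus9D, against 80.2, 66.8, 78.3 and 76.8 RPKM in wild type, a difference of 0.60 ± 0.16 (adjusted p = 0.10). The RNA of both genes in pus9D, 167 and 40.9 RPKM, lay inside the wild-type ranges of 167 to 176 and 35.2 to 44.3 RPKM.

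GPI15, an enzyme of the first step of lipid anchor synthesis, had 15.5 and 16.3 RPKM in pus9D, against 8.64 to 11.6 RPKM in wild type, and YNK1, the nucleoside diphosphate kinase, had 268 and 345 RPKM in pus9D, against 193 to 239 RPKM in wild type. SRO9, an RNA-binding protein of the cytosol, stood among the lower ones, with 398 and 338 RPKM in pus9D and 434 to 470 RPKM in wild type. Their limma adjusted p were 0.092, 0.092 and 0.077. GPI15 also lay above wild type in pus5D (13.3 and 13.7 RPKM) and pus3D (12.7 and 18.7 RPKM). In pus2D GPI15 had 11.6 and 13.5 RPKM, the first barely above wild type. Both pus4D libraries lay inside the wild-type range.

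For the mean of the 3 strains, 1.03% of all genes had all 6 strain libraries above the 4 of wild type and 0.794% had them below. NDI1, the internal NADH dehydrogenase of the yeast respiratory chain, was 1 of those above, with 21.7 and 24.3 RPKM in pus2D, 22.9 and 25.2 RPKM in pus5D and 24.6 and 27.1 RPKM in pus9D, against 13.8 to 20.4 RPKM in wild type (0.46 ± 0.12; limma, adjusted p = 0.22). NDI1 also lay above wild type in pus3D (22.9 and 20.7 RPKM) and pus4D (23.9 and 20.7 RPKM). DUS3, a dihydrouridine synthase of cytosolic tRNA, was below, with 46.8 to 49.2 RPKM in the 6 strain libraries and 50.7 to 59.9 RPKM in wild type (-0.22 ± 0.06; adjusted p = 0.22).

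All 74 mitochondrial ribosomal protein genes were tested in footprints, and none passed in any strain. Their median log2 difference was 0.048 in pus2D, 0.046 in pus5D and 0.085 in pus9D, against 0.023, 0.0028 and 0.0083 for all genes. Both strain libraries lay above all 4 wild-type libraries for 6 of the 74 in pus2D, 11 in pus5D and 11 in pus9D, where 9.37%, 8.32% and 9.69% of all genes did. They lay below for 3, 1 and 2 of the 74, where 6.19%, 7.47% and 9.11% of all genes did. Single members ran from -0.36 for MRPL49 to 0.40 for MRPL6 in pus2D, from -0.23 for MRPL16 to 0.33 for MRPL32 in pus5D and from -0.18 for MRPL27 to 0.48 for MRPL23 in pus9D. In RNA all 3 strain libraries lay above wild type for 1 of the 74, where 2.44% of all genes did, and below for 0, where 0.636% did.

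Of 39 tested nuclear genes of oxidative phosphorylation, none passed, with medians of 0.068 in pus2D, 0.029 in pus5D and 0.038 in pus9D. Its extremes were TIM11 at -0.25 and NDI1 at 0.38 in pus2D, INH1 at -0.26 and COX7 at 0.55 in pus5D, and COX8 at -0.32 and NDI1 at 0.55 in pus9D. The 13 tested genes of the tricarboxylic acid cycle had medians of 0.095, 0.030 and 0.049 in the same order of strains, and none passed. The retrograde response, by which yeast with failing mitochondria switches on nuclear genes of the glyoxylate and anaplerotic pathways, had 11 tested genes with medians of 0.064, 0.037 and 0.033. PYC1 in pus2D was its 1 call, and it was lower.

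The largest shifts of the mitochondrial groups were in pus9D. The 12 tested genes of mitochondrial translation factors and activators had a median of 0.27 in pus9D, against 0.055 in pus2D, 0.056 in pus5D and 0.0083 for all genes in pus9D. For 6 of the 12 both pus9D libraries lay above all wild-type libraries, where 9.69% of all genes did. The 6 tested genes of mitochondrial aminoacyl-tRNA synthesis had a median of 0.28 in pus9D, against 0.10 in pus2D and 0.045 in pus5D. The highest members in pus9D were PET122 at 0.60 and MSY1, the mitochondrial tyrosyl-tRNA synthetase, at 0.48. None of these genes passed against wild type. In RNA, where 24 and 16 members were tested, the pus9D medians were 0.067 and 0.13, against 0.033 for all genes.

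Groups that respond to nutrients or stress held no call in the 3 strains. The 41 Gcn4 targets in amino acid synthesis had medians of -0.0043 in pus2D, -0.043 in pus5D and -0.036 in pus9D. The 11 tested Msn2/4 stress genes had medians of 0.29 in pus2D, 0.079 in pus5D and 0.31 in pus9D, and both libraries lay above wild type for 6, 1 and 4 of them, where 9.37%, 8.32% and 9.69% of all genes did. HSP26, a small heat shock protein, had the largest difference in pus2D (0.68) and in pus9D (0.72). In RNA 8 of 10 lay above all wild-type libraries in pus2D, where 16.9% of all genes did, with 0 in pus5D, where 18.2% did, and 1 in pus9D, where 26.7% did. The 18 tested genes of the Aft1 iron regulon had medians of 0.097, 0.086 and 0.22 in pus2D, pus5D and pus9D, and its highest member in each was ARN2, an iron siderophore transporter, at 0.90, 0.64 and 0.97.

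The remaining lists held no call against wild type in footprints either. Medians in pus2D, pus5D and pus9D were 0.019, -0.042 and -0.032 for 12 genes of mitochondrial RNA modification and processing, 0.026, 0.043 and 0.019 for 8 genes of mitochondrial DNA maintenance, and 0.087, 0.027 and 0.10 for 13 mitochondrial chaperones and proteases. They were 0.078, -0.037 and 0.13 for 7 genes of pleiotropic drug resistance, 0.080, 0.055 and 0.13 for 9 hypoxic genes, and -0.044, -0.056 and -0.12 for 15 phosphate starvation genes. Of 14 low-glucose genes only 2 were expressed enough to test.

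**Figure D4:**
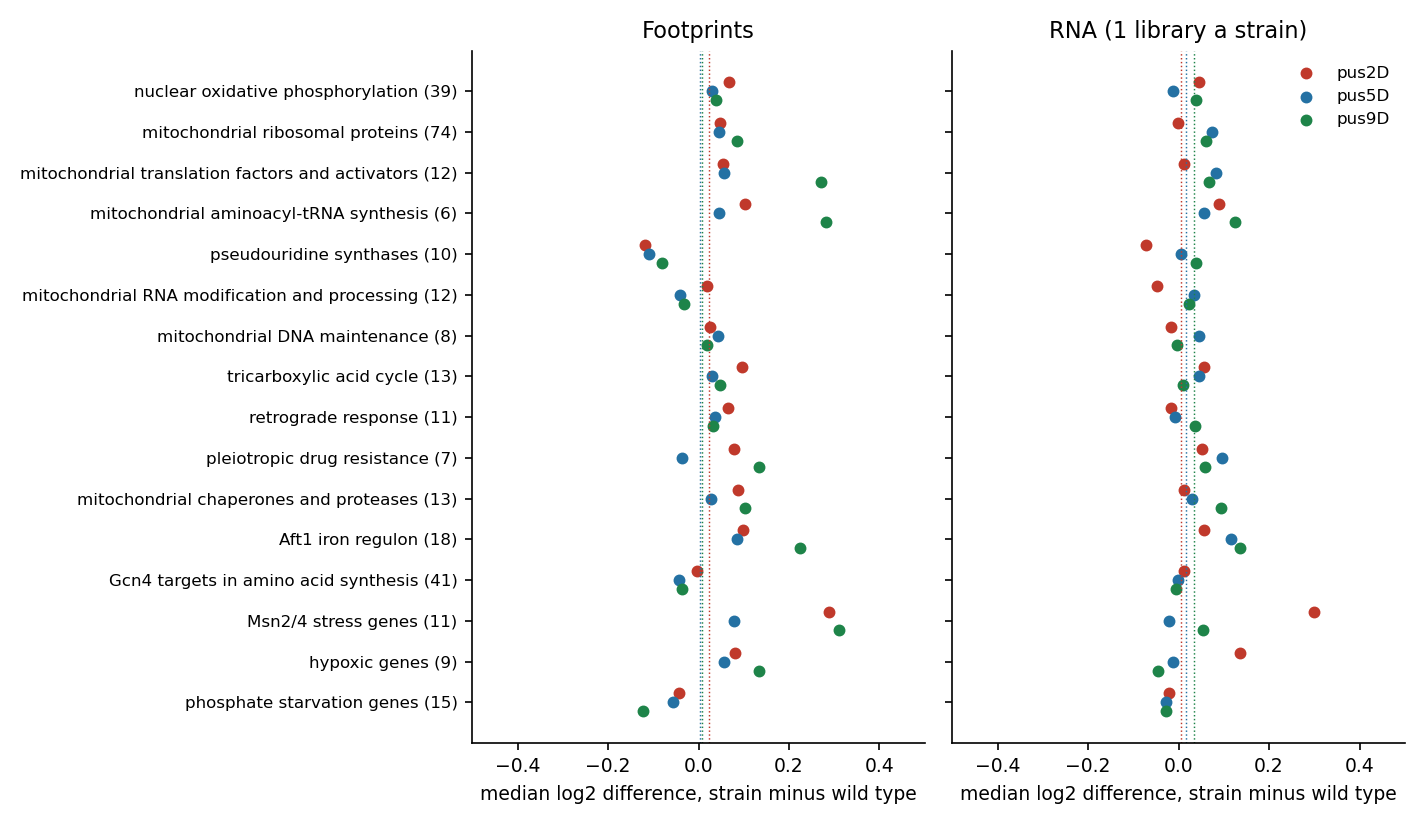
Median log2 difference from wild type (x axis) of each gene list (y axis, with the number of members tested in footprints in brackets) for pus2D, pus5D and pus9D, in footprints (left) and RNA (right); dotted lines are the medians of all genes. The lists of ribosome biogenesis, low-glucose, mating type and marker genes are not drawn. Among the lists drawn, the footprint medians reach 0.31 for the Msn2/4 stress genes in pus9D and -0.12 for the phosphate starvation genes in pus9D.

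The messages of the mitochondrial genome were present in all 3 strains, with sums inside the wild-type range in pus2D and pus5D and just below it in pus9D. The summed RNA of the 8 protein genes was 4197 RPKM in pus2D, 3782 RPKM in pus5D and 3606 RPKM in pus9D, against 3801, 3751, 3959 and 4247 RPKM in wild type. The strains averaged 3862 ± 304 RPKM (SD, n = 3), 98.0% of the wild-type mean of 3940 ± 223 RPKM (SD, n = 4). An exact two-sided permutation test gave p = 0.69, and this design cannot go below 0.057. In bulk cultures, fewer cells with a mitochondrial genome and less mitochondrial RNA per cell cannot be told apart.

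COX1, which encodes a core subunit of cytochrome c oxidase, had 384, 373 and 360 RPKM in pus2D, pus5D and pus9D and 346 to 443 RPKM in wild type. COB, which encodes cytochrome b, had 257, 249 and 230 RPKM in the strains and 229 to 268 RPKM in wild type. Both stayed inside the wild-type range in all 3 strains. ATP8, a subunit of ATP synthase, was 156 RPKM in pus9D, against 201 to 252 RPKM in wild type, and 234 RPKM in pus2D and 209 RPKM in pus5D.

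In pus9D 4 of the 8 messages lay below all wild-type libraries, where 9.4% of all genes did, and none lay above; these were COX2, COX3, ATP6 and ATP8, with log2 differences of -0.19, -0.16, -0.18 and -0.48. In pus2D 3 lay above, where 16.9% of all genes did, and the largest difference was that of VAR1, a protein of the mitochondrial ribosome, at 169 RPKM against 113 to 145 RPKM in wild type (0.43). In pus5D 1 lay below, OLI1, another ATP synthase subunit, at 1674 RPKM against 1678 to 1921 RPKM in wild type, where 11.3% of all genes lay below. In the comparison strain pus4D, COX1, COX2, ATP6 and OLI1 lay below all wild-type libraries, at 341, 379, 304 and 1556 RPKM. Its other messages lay inside the wild-type range. All of these are single RNA libraries with no replicate check. OLI1 made up 44.3% to 47.5% of the sum in pus2D, pus5D and pus9D and 44.7% to 46.5% in wild type.

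Footprints on these 8 genes were near 0 in the libraries described here, which were made from the 80S fraction. Their sums were 2.40 and 0.571 RPKM in pus2D, 0.434 and 0 RPKM in pus5D, 0.541 and 0.063 RPKM in pus9D, and 0, 1.17, 0.052 and 0.071 RPKM in wild type. The groups overlapped (exact two-sided permutation test, p = 0.69). At this level mitochondrial translation itself was not measured. Over all 14 wild-type footprint libraries of the series the sum averaged 56.4 RPKM and reached 537 RPKM, so near 0 did not hold in every set. The cause of that difference was not tested.

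**Figure D5:**
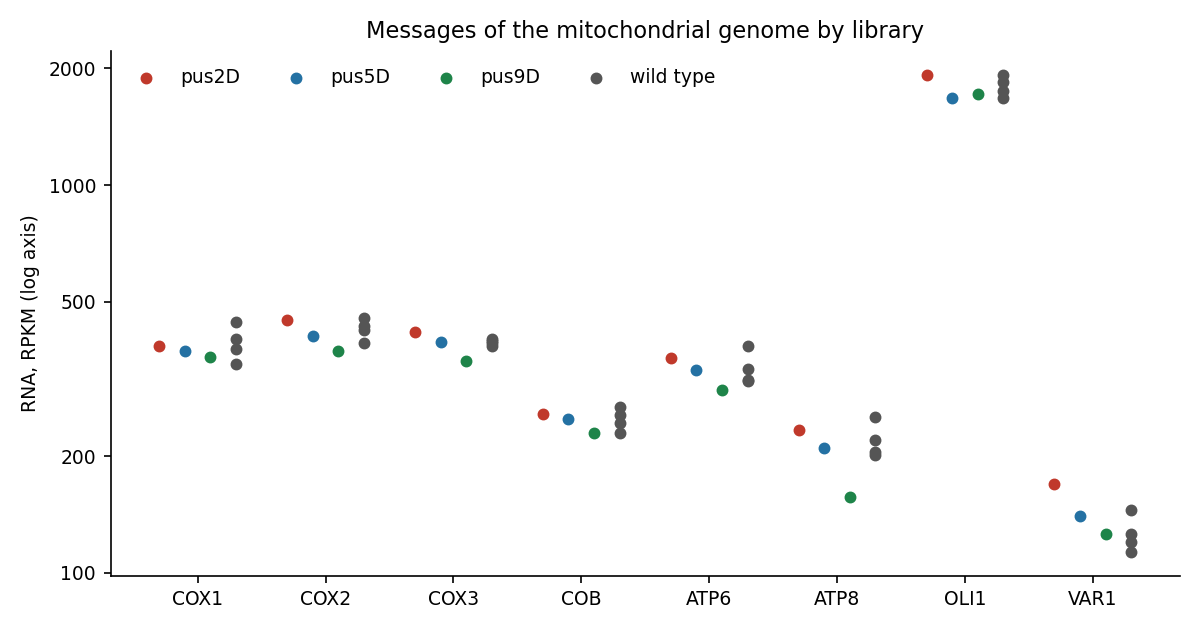
RNA of the 8 protein genes of the mitochondrial genome (x axis) in RPKM (y axis, log scale), 1 point a library for pus2D, pus5D, pus9D and the 4 wild-type libraries. Strain points lie within or near the wild-type spread, with ATP8 in pus9D (156 RPKM) below it and VAR1 in pus2D (169 RPKM) above it.

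With 1 RNA library a strain, a gene was counted when its RNA was higher or lower than in all of wild-type libraries 5 to 8 and differed from their average by 2-fold or more. This counted 2 of 5031 genes in pus2D (0.0398%), 1 in pus5D (0.0199%) and 2 in pus9D (0.0398%), and the deleted gene was among them each time. The same rule, applied to each wild-type library against the other 3, counted 2, 1, 0 and 1 genes. Without the deleted gene the strains had 1, 0 and 1, within the counts between wild-type libraries. Each wild-type library was set against only 3 others, a range easier to fall outside, so the counts are not like for like. The other gene of pus2D was COS8, a member of a subtelomeric family whose near-identical copies make its count uncertain, at 37.2 RPKM against 7.65 to 29.8 RPKM in wild type.

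The other gene of pus9D was YOR235W (chromosome XV, 779870 to 780184), which shares 78 bases with SNR17A, a gene for the U3 snoRNA. The use of strand in counting is not given in the sources used here, so reads of these overlapping genes cannot be told apart. Its RNA was 81.0 RPKM in pus9D, against 85.7 to 2717 RPKM in wild type, and 1 wild-type library alone held the high value. As a group, the 3 RNA libraries differed from the 4 of wild type in 0 of 5031 genes (limma), with 111 at an unadjusted p under 0.05. The ratio of footprints to RNA, translational efficiency, differed in 0 of 4253 genes (limma, assay by group interaction), with 107 at an unadjusted p under 0.05. The 95% intervals lay within 2-fold for 99.9% of genes in RNA and 99.3% in translational efficiency.

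Codon occupancy, the share of footprints with a given codon in the A, P or E site of the ribosome, was compared for 61 codons at 3 sites, as log2 values relative to wild type. Cytosolic tRNAs decode these codons. In pus2D 5 of 183 values passed (2.73%), in pus5D 0 (14 at an unadjusted p under 0.05), and in pus9D 1 (0.546%), all by limma with adjustment over the 183. The mean of the 3 strains had 0 calls, with 22 at an unadjusted p under 0.05. Every 95% interval lay within 2-fold, and the largest value in any of the 6 libraries was 0.33 in size.

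The cysteine codon UGC in the P site was lower in pus2D, at -0.14 and -0.25, against -0.040, 0.024 and 0.015 in the 3 wild-type libraries with a column. The difference was -0.19 ± 0.05 (SE; limma, adjusted p = 0.036). The proline codon CCA in the P site was also lower, by -0.11 ± 0.03. Higher in pus2D were AUU (isoleucine) and UUG (leucine) in the P site and CCC (proline) in the A site, by 0.13, 0.10 and 0.13, all with adjusted p = 0.036. In pus9D the valine codon GUA in the E site was higher by 0.11 ± 0.03 (adjusted p = 0.013), at 0.073 and 0.15 against 0.0090, -0.026 and 0.017 in wild type. None of these 6 passed when only the libraries compared were fitted, and without 1 of the libraries the count in pus2D ran from 0 to 11.

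The comparisons of the 3 strains with wild type share their wild-type libraries, so they are not independent of each other. Compared with each other, the 3 strains differed in few genes. Between pus2D and pus5D 0 of 4281 genes passed (limma; 204 at an unadjusted p under 0.05). Between pus2D and pus9D 5 passed (0.117%), 2 of them higher (0.0467%) and 3 lower (0.0701%) in pus2D, and between pus5D and pus9D 1 (0.0234%), the deleted PUS9. The 95% intervals of these differences lay within 2-fold for 97.8%, 97.5% and 97.3% of genes, given for pus2D against pus5D, pus2D against pus9D and pus5D against pus9D. Beside PUS9 and PYC1, the 3 genes that separated pus2D from pus9D were ABZ2, PET122 and SDH8.

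PET122, an activator that the mitochondrial ribosome needs for COX3, had 7.58 and 7.81 RPKM of footprints in pus2D, against 16 and 20.4 RPKM in pus9D, a log2 difference of -1.13 ± 0.26 (limma, adjusted p = 0.043). It had 11.3 and 11.7 RPKM in pus5D and 8.66, 10.6, 12.1 and 15.9 RPKM in wild type. The pus2D values lay just below the wild-type range. In pus9D library 1 was barely above that range, and library 2, at 20.4 RPKM, was further above it. The PET122 RNA was 15.5 RPKM in pus2D and 16.2 RPKM in pus9D.

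SDH8 had 69.6 and 63.9 RPKM in pus2D, against 110 and 119 RPKM in pus9D, a difference of -0.77 ± 0.18 (limma, adjusted p = 0.046). ABZ2, an enzyme of folate synthesis, had 27.2 and 29.4 RPKM in pus2D, against 17.2 and 17.4 RPKM in pus9D, a difference of 0.68 ± 0.15 (adjusted p = 0.034). ABZ2 in wild type was 17.1 to 26.0 RPKM. None of these 3 differences passed when only the 4 libraries compared were fitted, nor without any 1 of the 4.

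The same test found large differences from pus3D, which lacks a synthase that acts on the anticodon arm of many cytosolic tRNAs. The mean of the 3 strains differed from pus3D in 1510 of 4281 genes (35.3%), 637 higher and 873 lower in the 3 strains, and 872 genes passed without library 2 of pus3D. Of 41 Gcn4 targets in amino acid synthesis, 40 were lower in the 3 strains than in pus3D and 1 was higher, where 20.4% and 14.9% of all genes were. Their median difference was -1.46, against -0.044 for all genes.

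LYS2 of lysine synthesis had 83.5 and 81.4 RPKM in pus2D, 81.4 and 75.6 RPKM in pus5D and 76.7 and 78.8 RPKM in pus9D, against 317 and 302 RPKM in pus3D. That difference was -1.95 ± 0.08 (SE; limma, adjusted p = 1.7e-33), and no library of the 3 strains came near the pus3D values. The summed RNA of the 8 mitochondrial messages was 3606 to 4197 RPKM in the 3 strains, against 7546 RPKM in the 1 library of pus3D. In the 1 library of pus4D it was 3583 RPKM.

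From pus4D, which lacks the synthase of the T loop of tRNA, the mean of the 3 strains differed in 21 genes (0.491%), 7 higher (0.164%) and 14 lower (0.327%). Under median centring 4 passed, and 2 passed without either library of pus4D. PUS4 itself had 59.0 to 67.7 RPKM in the 6 libraries, against 0 and 0 RPKM in pus4D. PYC1 was among the genes lower in the 3 strains (-0.44 ± 0.10; limma, adjusted p = 0.016), with the lowest values in pus2D, and pus4D had 95.2 and 94.0 RPKM. This call was lost under median centring (adjusted p = 0.055), quantile normalization (0.080), with only the libraries compared (0.082), with the library number as a block (0.13), without library 1 of pus2D (0.061) and without library 1 (0.28) or library 2 (0.23) of pus4D. PUS9, deleted in 1 of the 3, was lower too (-0.96 ± 0.15; adjusted p = 4.6e-05), a call lost at a pseudocount of 5 (0.12), with only the libraries compared (0.072), with the block (0.12) and without library 1 of pus4D (0.20).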

How the data were processed

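The authors deposited RPKM values of 6692 genes; per the series' design text and the submitters' processing notes, rDNA reads were discarded from footprints, unique reads of 27 to 34 nt (footprints) or 27 nt (RNA) were placed on sacCer3, and TopHat2 2.0.12, SAMtools and HOMER 4.6 were used. Their ratio table, deposited as linear ratios of 4884 genes, served only to tie the strains to their wild-type set: it was returned by wild-type footprint libraries 7 to 10 and RNA libraries 5 to 8 within 0.01 log2 for 100% of genes. Codon occupancy came from the authors as log2 values per codon and site, with no column for wild-type library 10; its rule for assigning codons is not given in the sources used here, and 8 of its columns were not used.

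Depth was recovered from the RPKM steps and R64 coding lengths (95.3% to 98.4% of values up to 20 reads were whole within 0.1). PCR copies were not distinguished, so limits cover counting error only. Values were log2 of RPKM plus 1. Genes averaging at least 10 RPKM were fitted with limma 3.58.1 in R 4.3.3 (empirical Bayes with a trend, Benjamini-Hochberg adjustment, threshold 0.05), footprints over all 127 libraries with a term for each strain and wild-type set (67 residual degrees of freedom), RNA with strains pooled, and codons without a trend. Sums were compared by exact permutation tests in scipy 1.17.1. The fits were tested on simulated data. No libraries were copies: at most 0.0467% of values were identical in any pair of a group. Named genes were the deleted genes, their neighbours, up to 10 called genes in each direction, or the largest moderated t where under 5 were called. The members, lists and tests were chosen with earlier results of these data known. Alternatives changed scaling, pseudocount, filter, libraries and wild-type reference.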

Additional observations from a re-analysis of the deposited data

Results flagged for a closer look

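Among 67 sets of 4 wild-type values examined, 5 held a library far from the other 3, and chance gives about 1 in 20. YOR235W RNA was 2717 RPKM in wild-type library 6 and 85.7 to 103 RPKM in the others. PUS1 RNA was 65.4 RPKM in wild-type library 8 and 58.1 to 58.2 RPKM in the others. NHP2 RNA, for a protein of the snoRNA-guided pseudouridine enzyme, was 295 RPKM in wild-type library 7 and 273 to 276 RPKM in the others. BSC1 footprints were 0.376 RPKM in wild-type library 9 and 0 in the others. The summed footprints on mitochondrially encoded genes were 1.17 RPKM in wild-type library 8 and 0 to 0.071 RPKM in the others. For BSC1 and this sum the other 3 values were at or near 0, where even a trace value is flagged. The chance rate therefore does not apply to them.

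Footprints of 4 genes other than PUS9 differed between pus2D and pus9D in the direct test (limma, adjusted p of 0.034 to 0.046). ABZ2 was higher in pus2D by 0.68, PYC1 was lower by -0.55, PET122 by -1.13 and SDH8 by -0.77 on the log2 scale, each in the same direction for both pus2D libraries against both pus9D libraries. Each lost its call in the fit of the 4 libraries compared.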

How the results depend on the processing

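With 2 footprint libraries and 1 RNA library a strain, small changes were beyond reach, and PUS2 and PUS5 rested on few footprint reads. With all 14 wild-type footprint libraries as 1 group, 5 genes were called in pus2D, 134 in pus5D, 73 in pus9D and 910 for the mean of the strains. With all 13 wild-type codon columns as 1 group, codon calls were 24 in pus2D, 7 in pus9D and 27 for the mean. The cause was not tested.

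With a mean of at least 1 RPKM, 3 genes were called in pus2D, 1 in pus5D, 1 in pus9D, 1 between pus2D and pus5D, 5 between pus5D and pus9D, and 11 against pus4D. With no filter the counts were 8 in pus2D, 5 in pus5D, 5 in pus9D, 12 between pus2D and pus5D, 11 between pus2D and pus9D, 11 between pus5D and pus9D, and 5 for translational efficiency. Median centring called 5 genes in pus9D and 4 against pus4D, quantile normalization 6 against pus4D, and a pseudocount of 5 called 9 against pus4D.

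With only the libraries compared, 3 genes were called between pus2D and pus5D, 1 between pus2D and pus9D, 2 between pus5D and pus9D, 5 against pus4D, and 0 codons in pus2D and pus9D. The A site alone gave 0 codons in pus2D and pus9D. RNA counts at 1.5-fold were 6 in pus2D, 8 in pus5D and 5 in pus9D, and a pseudocount of 5 counted 1 in pus2D.

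Leaving out 1 library at a time gave 0 to 1 genes in pus2D, 0 in pus5D, 1 to 12 in pus9D, 1 to 2 for the mean, 0 between pus2D and pus5D, 1 to 4 between pus2D and pus9D, 1 to 4 between pus5D and pus9D, 872 to 1434 against pus3D and 2 to 18 against pus4D; the 12 came without library 1 of pus9D, the 872 without library 2 of pus3D and the 2 without either library of pus4D. Codon calls ranged over 0 to 11 in pus2D (11 without wild-type library 7, 0 without library 8 or 9 or without library 2 of pus2D), 0 in pus5D, 0 to 1 in pus9D and 0 for the mean, and RNA and translational efficiency stayed at 0.

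The summed mitochondrial RNA, strains minus wild type, ran from -246 to 50.1 RPKM around -77.8; it was above 0 without pus9D (50.1) and without wild-type library 8 (24.6). The summed mitochondrial footprints ran from -0.0022 RPKM, without library 1 of pus2D, to 0.627 RPKM around 0.344, and were -55.7 RPKM against all 14 wild-type libraries. Small uncalled differences also changed sign: against all 14 wild-type libraries ALG2 in pus2D (-0.18), MAS1 (-0.016) and RPS31 (0.041) in pus5D, and GPI15 (-0.088) and MAK16 (0.042) for the mean; RPS31 without library 2 of pus5D (0.029) or wild-type library 7 (0.0048). GPR1 in pus9D, -0.15 without library 1 of pus9D, was 0.10 without library 2 and 0.034 without wild-type library 8.

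No paired analysis was run for the comparisons with wild type, because no label ties a wild-type library to a library of the strains. The wild-type libraries carry the numbers 7 to 10 and those of the strains 1 and 2. Between strains, equal numbers did not pair the libraries (correlation of deviations 0.046, 0.049 and 0.056 among the 3 strains). With the library number as a replicate block, 5 genes were called between pus2D and pus5D, 0 between pus2D and pus9D, 5 between pus5D and pus9D and 6 against pus4D.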

Other observations

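A list of 73 genes of ribosome biogenesis, nucleolar and assembly factors, was chosen after SSF1 and PRP43 had been seen, so its direction is not independent of them, and it was not tested as a list. Its median log2 footprint difference was -0.099 in pus2D, -0.067 in pus5D and -0.13 in pus9D, against 0.023, 0.0028 and 0.0083 for all genes. Both strain libraries lay below all 4 wild-type libraries for 21 of the 73 in pus2D, 17 in pus5D and 25 in pus9D, where 6.19%, 7.47% and 9.11% of all genes did, and only SSF1 and PRP43 in pus9D passed. In RNA the medians were -0.12 in pus2D, 0.022 in pus5D and 0.033 in pus9D. MAK16, needed for the large subunit, had 102 to 136 RPKM of footprints in the 6 strain libraries, against 150, 144, 173 and 181 RPKM in wild type, with no overlap (-0.37 ± 0.10; limma, adjusted p = 0.22). GPT2, an acyltransferase of phospholipid synthesis, lay above wild type in all 6 strain libraries, at 24.1 to 28.9 RPKM against 20.1 to 22.4 RPKM, a mean difference of 0.33 ± 0.07 (limma, adjusted p = 0.055). GPT2 also lay above wild type in pus3D (27.1 and 26.9 RPKM), and had 22.3 and 24.5 RPKM in pus4D.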
